A study of Homo sapiens with 15 samples.

Results

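The genes described here are the ZNF zinc finger genes of human chromosome 19, measured by RNA-seq in K562 cells, an established leukaemia cell line that carries the BCR-ABL1 fusion and expresses erythroid genes. The members were chosen by name, position and level. They are the protein-coding genes whose symbol is ZNF followed by a digit, that lie on chromosome 19, and whose mean over the 15 libraries was at least 2 CPM, the gene's count divided by the library's total and multiplied by 1000000. Of 57500 gene rows, 251 were protein-coding ZNF genes of chromosome 19, and 148 of these passed the level rule. The genes just inside it were ZNF571 at 2.002, ZNF443 at 2.026 and ZNF71 at 2.11 CPM, and those just outside were ZNF506 at 1.964, ZNF417 at 1.912 and ZNF724 at 1.879 CPM. The 103 below the rule ranged down to 2 genes with 0 counts in every library.

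The libraries fall into 5 groups of 3. Cells transfected with Cas9FCPF together with an sgRNA received 1 µM JQ1-FCPF, and cells transfected with Cas9FCPF without an sgRNA received the same compound. A further pair of groups received 1 µM JQ1, again with and without the sgRNA. The control is labelled NT with the genotype WT, while the series' design text names DMSO as the control. The control thus differs from every treated group in its genotype label as well as in the compound. In comparisons with the control these cannot be told apart. Exposure was 1 h in all groups. The labels name neither the sgRNA's target nor the promoter or vector that drives Cas9FCPF, they do not say whether control cells were transfected, and the title speaks of dCas9 where the sample labels say Cas9. JQ1 is an inhibitor of BET bromodomain proteins, which bind acetylated histones and promote transcription. FCPF is a short peptide tag of phenylalanine, cysteine, proline and phenylalanine, and no structure of JQ1-FCPF is given in the sources used here. Nothing states that the 3 libraries of a group came from separate cultures, so the p-values measure the spread between these libraries, which may be technical.

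Zinc finger proteins of this family bind DNA through tandem C2H2 fingers, each of which contacts a few bases. Many also carry a KRAB domain at their amino-terminal end, which binds TRIM28 (KAP1). TRIM28 in turn brings in the histone methyltransferase SETDB1 and HP1 proteins and lays down H3K9 trimethylation, a repressive mark. Primate chromosome 19 holds dense clusters of KRAB zinc finger genes that arose by repeated duplication, and many of their products silence retrotransposons. Their mRNAs are often described as short-lived, but half-lives were not measured here.

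A KRAB A-box sequence pattern was found in the translated coding sequence of 121 members and in none of the coding transcripts of the other 27. A missing match says only that this pattern was not found. The number of C2H2 finger patterns per protein had a median of 12 and ran to 31, the value of ZNF91. ZNF738 had 0 finger patterns but matched the KRAB pattern. Exons of 83 members overlapped another annotated gene, and for 23 of them the overlapping gene itself had a mean of at least 2 CPM. Whether the counting used the strand of the reads is not given in the sources used here, so counts of these 23, and of recent duplicates that share sequence, are less certain.

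Library totals ranged from 12625669 to 17544518 gene counts, and 22970 to 27248 genes had a count. Replicates of a group differed by more than counting noise in every pair, the chi-square divided by its degrees of freedom being 2.76 to 43.2, so no library was counted as a duplicate. JQ1-FCPF with sgRNA replicate 2 stood apart from its replicates on the first principal component, at 32.2 against −16.7 and −14.8. On that component the JQ1 libraries lay between 16.8 and 24.6, and the control and JQ1-FCPF libraries without sgRNA between −24.7 and −18.4. That replicate 2 was therefore on the side of the JQ1 libraries and beyond all of them. Replicates 1 and 3 of its group were on the side of the control. The cause of this position was not tested. JQ1 with sgRNA replicate 1 had the largest share of mitochondrial counts, 7.38%, against a lowest share of 2.28%. Its chi-square per degree of freedom against its replicates, 40.4 and 43.2, was the largest of any pairs. On the first principal component it lay among the JQ1 libraries. This library and JQ1-FCPF with sgRNA replicate 2 are the libraries said further on to stand apart. All 10 erythroid and K562 markers averaged at least 1 CPM, with a summed level of 1570 to 2430 CPM per library. Of the other cell types, 1 of 3 B cell markers, 2 of 3 T and NK cell markers, 4 of 5 epithelial markers and 1 of 5 fibroblast markers averaged at least 1 CPM. Their summed levels were 3.1 to 5.9, 19.4 to 34.1, 832 to 1450 and 1.82 to 6.74 CPM per library, in that order, and none of these markers had 0 counts in all libraries. The labels call the cells lymphoblasts. Differences in cell number and in RNA per cell cannot be told apart in such bulk samples.

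Most members were expressed at low levels. Mean CPM over the 15 libraries had a median of 7.49, with quartiles of 4.96 and 16.9, against a median of 34.5 and quartiles of 14.1 and 82.7 over the 10703 protein-coding genes that passed the same level rule. Per kilobase of annotated exon length, the members' median was 1.70 CPM per kb, with a range of 0.263 to 43.1, against a median of 6.64 for those protein-coding genes. The members with a KRAB pattern had a median of 1.38 CPM per kb, and their highest was ZNF317 at 7.75. The members without the pattern had a median of 6.88 CPM per kb, and the 10 highest members per kilobase were all of this kind.

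By level per kilobase the first 5 members were ZNF787 at 43.1, ZNF428 at 36.7, ZNF146 at 28.6, ZNF580 at 20.2 and ZNF581 at 18.9 CPM per kb. ZNF146, also known as OZF, consists almost solely of zinc fingers. ZNF580 and ZNF581 overlap each other and CCDC106, which averaged 58.8 CPM. By CPM, which also grows with transcript length, the first 5 were ZNF787 at 158, ZNF146 at 118, ZNF121 at 97.3, ZNF428 at 66.1 and ZNF865 at 61.2.

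Across the 15 libraries the members varied about as much as other genes. The SD of a gene's log2 CPM over the libraries had a median of 0.231 over the members, with quartiles of 0.19 and 0.298, and of 0.232 over all 15517 tested genes, with quartiles of 0.16 and 0.378. The members with the smallest SD were ZNF254 at 0.092, ZNF714 at 0.103, ZNF440 at 0.111, ZNF146 at 0.115 and ZNF791 at 0.117. The members with the largest SD were ZNF230 at 0.648, ZNF296 at 0.552, ZNF792 at 0.521, ZNF420 at 0.518 and ZNF583 at 0.468. ZNF230, ZNF296 and ZNF792 were also the members with the largest folds in the first comparison described here.

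The family's summed level was lowest in cells given JQ1-FCPF with the sgRNA. The 148 members summed to 1951, 1979 and 2009 CPM in these libraries. They summed to 2260, 2307 and 2280 CPM in the JQ1-FCPF libraries without sgRNA, to 2203, 2155 and 2111 CPM in the JQ1 libraries with sgRNA, to 2152, 2174 and 2193 CPM in the JQ1 libraries without sgRNA, and to 2259, 2238 and 2247 CPM in the control libraries. All 3 JQ1-FCPF libraries with sgRNA lay below the other 12, and their mean was 1980 ± 29 CPM, against 2280 ± 23.6 CPM without sgRNA and 2250 ± 10.5 CPM in the control (SD, n = 3 each).

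A sum is weighted to the highest genes, so the median deviation from each gene's mean log2 CPM was also taken for every library. It was −0.221, −0.126 and −0.143 in the JQ1-FCPF libraries with sgRNA, against 0.073, 0.094 and 0.011 in those without sgRNA. It lay between −0.02 and 0.133 in the JQ1 libraries with sgRNA, between 0.022 and 0.056 in the JQ1 libraries without sgRNA, and between −0.002 and 0.106 in the control libraries. The 190 ZNF genes of other chromosomes that passed the level rule deviated by −0.162, −0.113 and −0.140 in the JQ1-FCPF libraries with sgRNA and by no less than −0.057 elsewhere. The 697 other protein-coding genes of chromosome 19 deviated by −0.031, −0.051 and 0.052 in the JQ1-FCPF libraries with sgRNA, and their lowest value, −0.182, was in JQ1 with sgRNA replicate 1. The shift was therefore shared with ZNF genes elsewhere in the genome and was not seen in the median of other genes on the same chromosome.

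Gene by gene, all 3 JQ1-FCPF libraries with sgRNA were below the 12 other libraries for 15 of the 148 members, or 10.1%, against a background of 2.33% of tested genes. These were ZNF17, ZNF71, ZNF226, ZNF230, ZNF260, ZNF283, ZNF304, ZNF526, ZNF543, ZNF548, ZNF579, ZNF586, ZNF614, ZNF708 and ZNF792, given whole. Among the 190 ZNF genes of other chromosomes 21 had this pattern. These libraries were above all others for 0 members (background 1.07%). For 0 members were all 3 libraries of another group below the rest, where the background was 0.258% for JQ1-FCPF without sgRNA, 0.638% for JQ1 with sgRNA, 0.967% for JQ1 without sgRNA and 0.69% for the control. ZNF526 was highest in the JQ1-FCPF libraries without sgRNA (background 0.322%), ZNF524 in the JQ1 libraries without sgRNA (background 1.37%) and ZNF260 in the control (background 0.748%). The JQ1 libraries with sgRNA were above all others for 0 members (background 0.651%).

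The first comparison asks what the sgRNA changed in cells given JQ1-FCPF. Adding the sgRNA was accompanied by lower mRNA levels of 19 of the 148 members, and 0 were called higher. A gene was called at an adjusted p under 0.05 in edgeR's quasi-likelihood test with Benjamini-Hochberg adjustment over all tested genes. The 19 calls are 12.8% of the members, against a background of 6.25% of all tested genes called either way, 4.2% called lower and 2.06% called higher. The members' median log2 fold change was −0.206, with quartiles of −0.388 and −0.044, and 113 of 148, or 76.4%, were below 0. Over all tested genes the median was 0.007, with quartiles of −0.194 and 0.182, and 49% were below 0. Unadjusted p-values were under 0.05 for 47 members.

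ZNF genes of other chromosomes were also mostly lower, with 32 of 190 called lower, 1 called higher and a median of −0.201. Other protein-coding genes of chromosome 19 had 44 of 697 called lower, 11 called higher and a median of −0.029. The libraries with sgRNA lay below those without it, with no overlap, for 52 members (background 12.6%), and above for 3 (background 9.98%). Among the 125 members free of exon overlap with a gene at or above 2 CPM, 18 were called lower and the median was −0.212.

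The count of calls depended on single libraries. It was 9 without JQ1-FCPF with sgRNA replicate 1, 10 without JQ1-FCPF without sgRNA replicate 3 and 11 without JQ1-FCPF without sgRNA replicate 2, and 27 when both libraries that stand apart were left out. With only the 6 libraries of this comparison in the fit, 5 members were called. The members' median stayed between −0.244 and −0.177 under the 23 alternatives run. The 5 genes ZNF296, ZNF304, ZNF579, ZNF584 and ZNF792 were called under each of them.

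The promoters of 5 members are shown. ZNF230, ZNF296 and ZNF792 had the largest folds in this comparison, and ZNF304 and ZNF584 are the members called in the interaction test described further on. Each is the 300 bases from 250 before to 50 after the start that RefSeq gives on GRCh38.p14, written 5′ to 3′ on the gene's strand. Capitals mark CCAAT or its reverse complement ATTGG, the letters of the box that NF-Y binds, and CCGGAAG or its reverse complement CTTCCGG, letters of the kind that ETS factors bind. The positions are chr19:44002707-44003006 on the plus strand for ZNF230, chr19:45076429-45076728 on the minus strand for ZNF296, chr19:34964180-34964479 on the minus strand for ZNF792, chr19:57351021-57351320 on the plus strand for ZNF304 and chr19:58408399-58408698 on the plus strand for ZNF584. The start that RefSeq gives for ZNF584 lies inside the gene's span as given for it further on, well downstream of that span's first base, while those of the other 4 lie near the 5′ end of the gene's span.
ZNF230: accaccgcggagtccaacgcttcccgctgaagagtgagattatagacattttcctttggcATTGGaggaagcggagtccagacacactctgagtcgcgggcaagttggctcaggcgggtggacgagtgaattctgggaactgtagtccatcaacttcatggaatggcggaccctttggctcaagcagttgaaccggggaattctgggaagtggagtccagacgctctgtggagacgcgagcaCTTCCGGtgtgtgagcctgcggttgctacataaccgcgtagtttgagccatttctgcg
ZNF296: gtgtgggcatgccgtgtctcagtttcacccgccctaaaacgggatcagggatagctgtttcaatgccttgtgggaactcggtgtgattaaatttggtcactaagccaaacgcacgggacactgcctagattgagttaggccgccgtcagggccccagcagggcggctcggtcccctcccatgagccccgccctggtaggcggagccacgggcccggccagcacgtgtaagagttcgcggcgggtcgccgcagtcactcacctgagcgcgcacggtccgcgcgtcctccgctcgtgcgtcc
ZNF792: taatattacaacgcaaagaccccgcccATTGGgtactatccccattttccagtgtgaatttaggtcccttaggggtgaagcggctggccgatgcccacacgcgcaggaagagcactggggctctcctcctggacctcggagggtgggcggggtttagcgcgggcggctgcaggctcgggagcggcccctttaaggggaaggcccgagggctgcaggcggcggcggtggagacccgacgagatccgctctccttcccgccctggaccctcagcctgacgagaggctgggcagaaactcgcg
ZNF304: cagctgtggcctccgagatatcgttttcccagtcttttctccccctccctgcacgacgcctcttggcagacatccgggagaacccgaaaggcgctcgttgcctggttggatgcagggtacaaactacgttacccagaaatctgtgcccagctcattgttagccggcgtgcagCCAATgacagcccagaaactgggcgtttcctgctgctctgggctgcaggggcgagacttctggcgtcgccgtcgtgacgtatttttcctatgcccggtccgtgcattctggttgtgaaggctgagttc
ZNF584: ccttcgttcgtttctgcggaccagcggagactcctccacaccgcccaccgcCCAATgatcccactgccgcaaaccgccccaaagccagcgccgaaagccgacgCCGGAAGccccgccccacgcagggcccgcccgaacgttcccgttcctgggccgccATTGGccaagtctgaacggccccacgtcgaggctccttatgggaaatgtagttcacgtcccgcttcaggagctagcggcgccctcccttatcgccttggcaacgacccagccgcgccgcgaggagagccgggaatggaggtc
ZNF230 holds 1 of each motif, ZNF584 holds 2 CCAAT and 1 CCGGAAG matches, ZNF792 and ZNF304 hold 1 CCAAT match, and ZNF296 holds 0 of either.

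A RefSeq promoter of this kind was found for 134 of the 148 members, and both strands were searched. CCAAT or ATTGG occurred in 74 of the 134, or 55.2%, against 36.8% of the promoters of tested genes and 35.7% of all 27305 promoters listed. The share was 44.4% for ZNF genes of other chromosomes and 40.8% for other chromosome 19 genes. It was in 15 of the 19 members called lower and in 59 of the 115 others with a promoter. CCGGAAG or CTTCCGG occurred in 47.0% of the members' promoters, 40.7% of those of other ZNF genes, 17.5% of those of other chromosome 19 genes, 19.7% of those of tested genes and 10.7% of all promoters, and in 9 of the 19 called lower. Both motifs stood together in 29.1% of the members' promoters and 6.88% of those of tested genes, and these 2 motifs cannot overlap each other. GGGCGG can share end bases with both and TATAAA with CCAAT, while CACGTG shares none with either. GGGCGG, the letters of a GC box, was in 70.1% of the members' promoters and 70.4% of those of tested genes, CACGTG in 5.22% and 10.2%, and TATAAA in 2.99% and 5.52%. These are counts of letters and not measured binding sites.

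ZNF296 (ENSG00000170684, chr19:45071500-45076588 on GRCh38, minus strand), whose mouse counterpart Zfp296 aids reprogramming to pluripotency, had 6.90, 4.25 and 7.62 CPM with the sgRNA, against 13.5, 12.7 and 16.5 CPM without it. The groups did not overlap. It fell by 1.17 ± 0.18 on the log2 scale (SE), a 2.25-fold difference (adjusted p = 0.000338), and kept its call under every alternative. The JQ1 libraries with sgRNA, at 5.29, 7.79 and 7.83 CPM, overlapped the JQ1-FCPF libraries with sgRNA, while the JQ1 libraries without sgRNA had 10.6, 9.46 and 11.1 CPM and the control 12.6, 13.7 and 13.7 CPM.

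ZNF230 (ENSG00000159882, chr19:44002948-44013926, plus strand), a KRAB gene of the cluster at 44 Mb, had 0.843, 1.97 and 1.04 CPM with the sgRNA, against 3.39, 2.97 and 2.77 CPM without it. It had the largest fold of the members, 2.40-fold lower (log2 fold change −1.26 ± 0.30, adjusted p = 0.0134). Replicate 2, which stands apart on the first principal component, was the highest of its group and still below the lowest library without sgRNA. Its adjusted p ranged from 0.00047 to 0.0622 under the alternatives, 3 of which ended the call: without JQ1-FCPF with sgRNA replicate 1 (0.0597), without replicate 3 of that group (0.053) and with only the groups compared (0.0622).

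ZNF792 (ENSG00000180884, chr19:34956354-34964049, minus strand) had 2.91, 5.67 and 3.93 CPM with the sgRNA, against 9.29, 9.49 and 7.23 CPM without it. The 3 libraries were also below all JQ1 and control libraries, which lay between 6.89 and 11.4 CPM. It fell by 1.07 ± 0.21 on the log2 scale (adjusted p = 0.00357). ZNF543 (chr19:57320509-57330776, plus strand), also a KRAB gene, had 1.76, 1.42 and 1.54 CPM with the sgRNA, against 3.26, 2.77 and 3.62 CPM without it. It fell by 1.03 ± 0.25 on the log2 scale (adjusted p = 0.0153), and the call was lost without JQ1-FCPF without sgRNA replicate 3 (adjusted p = 0.0777). These 4 genes were the members lower by at least 2-fold.

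ZNF304 (ENSG00000131845, chr19:57351307-57359898, plus strand) encodes a KRAB transcriptional repressor. It had 3.06, 3.38 and 2.89 CPM with the sgRNA, against 5.36, 5.80 and 5.85 CPM without it. All 3 libraries were below the other 12, whose lowest value was 4.47 CPM. It fell by 0.87 ± 0.17 on the log2 scale (adjusted p = 0.00362).

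ZNF584 (ENSG00000171574, chr19:58401504-58418327, plus strand) had 15.1, 14.2 and 17.9 CPM with the sgRNA, against 27, 26.5 and 23.7 CPM without it, with no overlap. It fell by 0.71 ± 0.14 on the log2 scale (adjusted p = 0.00299). ZNF579 (chr19:55576770-55580845, minus strand), a better expressed member without a KRAB pattern, had 26.9, 32 and 32.5 CPM with the sgRNA, against 45.5, 51.8 and 55.9 CPM without it. It fell by 0.74 ± 0.12 on the log2 scale (adjusted p = 0.000418), and all 3 libraries were below the other 12.

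Smaller and less stable differences made up the rest of the 19. ZNF226, ZNF548 and ZNF17 fell by 0.83, 0.81 and 0.80 on the log2 scale (adjusted p = 0.0274, 0.0409 and 0.0323). ZNF17 had 1.46, 1.57 and 1.54 CPM with the sgRNA, against 3.14, 2.51 and 2.31 CPM without it, with no overlap. ZNF586, ZNF576, ZNF551, ZNF324B, ZNF507, ZNF708, ZNF260, ZNF526 and ZNF317 fell by 0.39 to 0.66 on the log2 scale. The calls of these 12 genes were lost under 1 to 11 of the 23 alternatives. ZNF586 shares exons with ZNF552 and ZNF587B, so its counts are less certain. ZNF507 had 12, 23.8 and 14.2 CPM with the sgRNA, against 26.7, 24.6 and 25.4 CPM without it. The value of replicate 2 lay just under the lowest library without sgRNA, and without that replicate the log2 fold change of ZNF507 was −0.96.

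At the other end, ZNF837 had the highest log2 fold change, 0.59, with 3.91, 5.82 and 5.77 CPM with the sgRNA, against 3.51, 3.36 and 3.46 CPM without it. The groups did not overlap, but the test did not pass (adjusted p = 0.147). ZNF160, second by fold, had 19.5, 17.5 and 15.5 CPM with the sgRNA, against 13.8, 13.6 and 13 CPM without it, again with no overlap (log2 fold change 0.37, adjusted p = 0.0789).

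Members with and without a KRAB pattern were both mostly lower. Of the 121 with the pattern 13 were called lower, with a median log2 fold change of −0.183, and of the 27 without it 6 were called lower, with a median of −0.263. The background called lower was 4.2% of tested genes, and the difference between these subsets was not tested. The median was below 0 at each level. The 49 lowest members, at 2.0 to 5.72 CPM, had a median of −0.265 and 7 calls, the 49 middle ones a median of −0.186 and 6 calls, and the 50 highest, at 11.7 to 158 CPM, a median of −0.203 and 6 calls. Over the 148 members, which share the same libraries, Spearman's rho between the log2 fold change and mean CPM was 0.094. It was 0.139 with exon length, −0.152 with GC content and 0.002 with the number of fingers.

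Along the chromosome the members form 14 runs when split at gaps over 1 Mb. In the run of 11 members from ZNF576 to ZNF296 (chr19:43596392-45076588), all 11 had a log2 fold change below 0, the median was −0.53, and 4 were called lower: ZNF230, ZNF226, ZNF296 and ZNF576. The largest run, 39 members from ZNF628 to ZNF446 at the end of the long arm (chr19:55476332-58481230), had 34 below 0, a median of −0.265 and 9 called lower. The 25 members from ZNF175 to ZNF813 (chr19:51571298-53496255), all with a KRAB pattern, had 20 below 0 and a median of −0.147, with 0 calls. The 21 members from ZNF101 to ZNF254 (chr19:19668796-24129961), which include ZNF91 and ZNF93, had 10 below 0, a median of 0.006 and 1 call, ZNF708. The background called lower in this comparison was 4.2% of tested genes. Differences between runs were not tested.

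**Figure D1:**
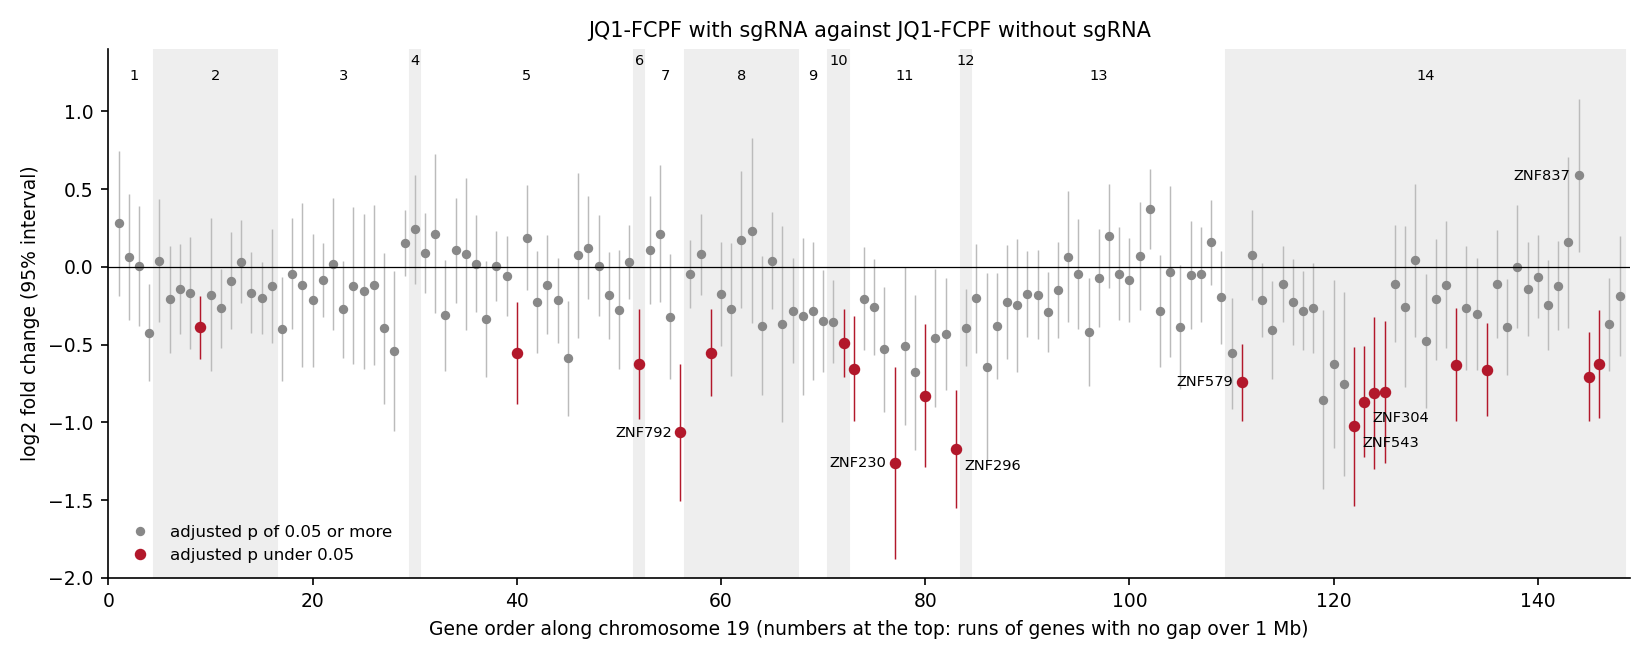
Log2 fold change of JQ1-FCPF with sgRNA over JQ1-FCPF without sgRNA, with its 95% interval, for the 148 members in their order along chromosome 19; numbers mark the 14 runs and red points the 19 members called. All 11 members of run 11 and 34 of the 39 of run 14 lie below 0, while run 5 is centred near 0 with a median of 0.006.

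The sgRNA's counterpart under JQ1 gave 0 calls. Between JQ1 with and without sgRNA, 0 of 148 members were called by edgeR's quasi-likelihood test and 0 by DESeq2, against a background of 0.0129%, or 2 genes. Unadjusted p-values were under 0.05 for 4 members. The members' median log2 fold change was −0.009 and their values ran from −0.58 for ZNF296 (adjusted p = 0.52) and −0.45 for ZNF420 (adjusted p = 0.639) to 0.35 for ZNF17 and 0.38 for ZNF442. The libraries with sgRNA lay below those without it, with no overlap, for 7 members (background 8.51%) and above for 7 (background 6.94%).

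Set against the control, JQ1-FCPF without the sgRNA also gave 0 calls. Of the 148 members, 0 were called by edgeR and 0 by DESeq2, against a background of 0.00644%, and 0 members had an unadjusted p under 0.05. The members' median log2 fold change was 0.030, with quartiles of −0.07 and 0.104. Libraries did not overlap for 4 lower members (background 3.51%) and 8 higher ones (background 3.95%). The most extreme values were −0.33 for ZNF559 and 0.48 for ZNF799, which had 3.08, 2.97 and 2.92 CPM with JQ1-FCPF and 2.48, 1.83 and 2.10 CPM in the control.

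Set against the control, JQ1-FCPF with sgRNA gave 16 members called lower and 1 called higher. These 17 are 11.5% of the members, against a background of 7.21% called either way, 4.79% called lower and 2.42% called higher. This comparison shares the JQ1-FCPF libraries with sgRNA with the first, so the 2 are not independent. The members' median was −0.187, with quartiles of −0.355 and −0.029, and 114 of 148 were below 0. The median over all tested genes lay between −0.022 and 0.023 with each library left out in turn. ZNF genes of other chromosomes had 39 of 190 called lower and a median of −0.200, and other chromosome 19 genes had 50 of 697 called lower, 12 called higher and a median of −0.014. The libraries lay below the control with no overlap for 42 members (background 13.3%) and above for 5 (background 11.8%).

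Of the genes already described, ZNF230, ZNF792, ZNF296 and ZNF543 fell by 1.13, 1.13, 1.08 and 0.97 on the log2 scale against the control (adjusted p = 0.0235, 0.0017, 0.000722 and 0.0182). ZNF304, ZNF579 and ZNF584 fell by 0.71, 0.64 and 0.64 (adjusted p = 0.0141, 0.00165 and 0.00568). ZNF583, a KRAB gene, had 1.46, 1.02 and 1.78 CPM against 3.5, 2.11 and 3.29 CPM in the control, and fell by 1.05 on the log2 scale (adjusted p = 0.0201). ZNF260, without a KRAB pattern, had 8.66, 9.84 and 7.68 CPM against 13.4, 13.7 and 14.0 CPM in the control, and fell by 0.66 (adjusted p = 0.00369). For both the groups did not overlap.

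ZNF576 and ZNF507 fell by 0.73 and 0.69 on the log2 scale (adjusted p = 0.00666 and 0.0146), and ZNF708, ZNF614, ZNF586, ZNF473 and ZNF317 by 0.43 to 0.60. ZNF160, the member called higher, had 19.5, 17.5 and 15.5 CPM against 14.4, 13 and 11.9 CPM in the control (log2 fold change 0.42, adjusted p = 0.0445). The groups did not overlap, but its call was lost under 15 of 23 alternatives, with adjusted p of 0.0226 to 0.193. The count of 17 was 10 without control replicate 1, 11 without control replicate 3, 7 with only the groups compared and 32 without both libraries that stand apart. ZNF792, ZNF260, ZNF576, ZNF296, ZNF579 and ZNF584 were called under each of the 23 alternatives, and the other 10 called lower lost their calls under 1 to 5 of them. ZNF304 lost its call without JQ1-FCPF with sgRNA replicate 3 (adjusted p = 0.0506) and without control replicate 1 (adjusted p = 0.0556).

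Few members passed the test when JQ1 was set against the control, which also differs in its genotype label. With the sgRNA, JQ1 gave 2 members called higher and 4 called lower against the control, 4.05% of 148, where the background was 14.2% called either way, 7.21% called higher and 7.04% called lower. The members' median log2 fold change was 0.019, with quartiles of −0.183 and 0.208. Members with a KRAB pattern had a median of 0.07 and those without it −0.198. ZNF genes of other chromosomes had 7 called higher, 21 called lower and a median of −0.108. Libraries did not overlap for 20 lower members (background 17.2%) and 12 higher ones (background 17.4%).

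ZNF296 fell by 0.94 on the log2 scale under JQ1 with sgRNA (adjusted p = 0.00279), from the CPM values given above. ZNF473, known as ZFP100 for its part in histone pre-mRNA processing, had 19.1, 22.1 and 20.6 CPM against 28.2, 32 and 30.0 CPM in the control, with no overlap. It fell by 0.55 (adjusted p = 0.00609). It overlaps VRK3, which averaged 42.6 CPM. ZNF583 and ZNF428 fell by 0.90 and 0.48 (adjusted p = 0.0255 and 0.0489).

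ZNF566 had 13.6, 14.0 and 14.8 CPM under JQ1 with sgRNA against 10.6, 8.59 and 9.71 CPM in the control, with no overlap, and rose by 0.55 on the log2 scale (adjusted p = 0.00646). ZNF850 had 8.61, 5.63 and 6.24 CPM against 5.03, 3.24 and 3.35 CPM, also with no overlap, and rose by 0.82 (adjusted p = 0.0133). Its adjusted p was 0.0616 without JQ1 with sgRNA replicate 1, the highest of the 3, 0.0637 without control replicate 2 and 0.0803 without control replicate 3. Over all members the count of 6 was 3 without control replicate 3 and 11 without both libraries that stand apart. ZNF566, ZNF296 and ZNF473 were called under each of the 23 alternatives.

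Without the sgRNA, JQ1 gave 4 members called higher and 4 called lower against the control, 5.41% of 148, where the background was 12.3% called either way, 6.07% called higher and 6.23% called lower. The median log2 fold change was −0.018, with quartiles of −0.184 and 0.201. Libraries did not overlap for 23 lower members (background 20.6%) and 19 higher ones (background 20.4%). Of the 4 called higher, 3 (ZNF420, ZNF566 and ZNF850) belong to the run of 11 members at chr19:36214602-37719790. The first and last members of that run, ZNF146 and ZNF607, had log2 fold changes of −0.016 and −0.234 and were not called. The run is named because of these calls, and differences between runs were not tested.

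ZNF420, also known as Apak, a KRAB protein that restrains p53, had 4.82, 6.02 and 7.05 CPM under JQ1 without sgRNA against 2.61, 3.31 and 2.90 CPM in the control. The groups did not overlap, and it rose 2.03-fold (log2 fold change 1.02 ± 0.27, adjusted p = 0.02). ZNF850 had 6.70, 6.90 and 8.56 CPM against 5.03, 3.24 and 3.35 CPM and rose by 0.93 ± 0.21 on the log2 scale (adjusted p = 0.00824). ZNF566 and ZNF160 rose by 0.46 and 0.39 (adjusted p = 0.0212 and 0.0458).

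ZNF784, without a KRAB pattern, had 7.42, 7.04 and 6.59 CPM under JQ1 without sgRNA against 9.93, 12 and 10.1 CPM in the control, with no overlap, and fell by 0.60 on the log2 scale (adjusted p = 0.015). ZNF473, ZNF584 and ZNF580 fell by 0.51, 0.43 and 0.38 (adjusted p = 0.0101, 0.0452 and 0.0391). ZNF580 shares exons with ZNF581 and CCDC106, so its counts are less certain. None of the 8 calls held under each of the 23 alternatives. With JQ1 without sgRNA replicate 3 or control replicate 3 left out there were 0 calls, and with JQ1 without sgRNA replicate 2 left out 2. There were 4 without control replicate 1 or 2, and 5 without JQ1 without sgRNA replicate 1 or without JQ1-FCPF without sgRNA replicate 3. There were 13 without JQ1-FCPF with sgRNA replicate 2, 21 without both libraries that stand apart and 24 with only the groups compared.

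The compounds, which the labels set apart by the FCPF suffix, were compared at the same dose and time in 2 pairs, with p-values adjusted over all genes within each. With the sgRNA, JQ1-FCPF set against JQ1 gave 8 members called lower and 0 called higher, 5.41% of 148, where the background was 2.95% called either way, 1.77% called lower and 1.18% called higher. The median log2 fold change was −0.203, with quartiles of −0.379 and −0.013, 114 of 148 were below 0, and 48 had an unadjusted p under 0.05. With each library left out in turn, the median over all tested genes lay between −0.081 and 0.029. Libraries did not overlap for 38 lower members (background 8.39%) and 2 higher ones (background 7.11%). ZNF genes of other chromosomes had 16 of 190 called lower and a median of −0.124. The 3 JQ1-FCPF libraries with sgRNA are also those set against JQ1-FCPF without sgRNA and against the control.

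ZNF230 fell by 1.33 on the log2 scale under JQ1-FCPF with sgRNA relative to JQ1 with sgRNA (adjusted p = 0.0154). ZNF543, ZNF792 and ZNF304 fell by 1.13, 1.11 and 0.87 (adjusted p = 0.0138, 0.00618 and 0.00808). ZNF225, a KRAB gene next to ZNF224, had 1.69, 2.44 and 1.6 CPM under JQ1-FCPF with sgRNA against 4.42, 3.27 and 3.24 CPM under JQ1 with sgRNA, with no overlap, and fell by 0.95 (adjusted p = 0.0289). ZNF226, ZNF17 and ZNF579 fell by 0.91, 0.86 and 0.44 (adjusted p = 0.0243, 0.0345 and 0.0485). ZNF296, at 4.25 to 7.62 CPM against 5.29 to 7.83 CPM, was not called.

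This count, too, depended on single libraries. It was 0 without JQ1-FCPF with sgRNA replicate 1 and with only the groups compared, 1 without replicate 3 of that group, 5 without JQ1 with sgRNA replicate 3, 32 without JQ1-FCPF with sgRNA replicate 2 and 29 without both libraries that stand apart. The median stayed between −0.281 and −0.144 under the 23 alternatives.

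Without the sgRNA, JQ1-FCPF set against JQ1 gave 6 members called higher and 3 called lower, 6.08% of 148, where the background was 7.8% called either way, 4.11% called higher and 3.69% called lower. The median log2 fold change was 0.022, with quartiles of −0.133 and 0.163. Libraries did not overlap for 18 lower members (background 18.2%) and 32 higher ones (background 18%). ZNF784 had 8.68, 11.1 and 11.8 CPM under JQ1-FCPF against 7.42, 7.04 and 6.59 CPM under JQ1, with no overlap, and rose by 0.58 on the log2 scale (adjusted p = 0.0272). ZNF587B, ZNF324, ZNF584, ZNF473 and ZNF580 rose by 0.40 to 0.55.

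ZNF420 had 3.69, 3.10 and 2.08 CPM under JQ1-FCPF without sgRNA against 4.82, 6.02 and 7.05 CPM under JQ1 without sgRNA, and fell by 0.99 on the log2 scale (adjusted p = 0.0326). ZNF555, a KRAB gene near the end of the short arm, had 4.25, 4.35 and 3.23 CPM against 6.26, 6.90 and 6.29 CPM and fell by 0.71 (adjusted p = 0.0272). ZNF566 fell by 0.42 (adjusted p = 0.0407). For ZNF420 and ZNF555 the groups did not overlap. The count of 9 was 0 without JQ1-FCPF without sgRNA replicate 2 or 3 and without any 1 of the 3 JQ1 libraries without sgRNA, 5 without JQ1-FCPF without sgRNA replicate 1, 14 without JQ1-FCPF with sgRNA replicate 2, 18 with only the groups compared and 22 without both libraries that stand apart.

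Whether the sgRNA's effect differed between the compounds was tested as an interaction, the log2 fold change with over without sgRNA under JQ1-FCPF minus that under JQ1. For 2 of 148 members, or 1.35%, the difference passed, both below 0, against a background of 0.786% called either way and 0.593% called below 0. With 2 genes this share is near the background, and nothing about the family is read from the count. The median interaction was −0.207, with quartiles of −0.452 and −0.012, and 114 of 148 were below 0. Over all tested genes the median lay between −0.058 and 0.036 with each library left out in turn. ZNF genes of other chromosomes had 6 of 190 called below 0 and a median of −0.254.

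The members called were ZNF304 and ZNF584. The sgRNA's log2 fold change for ZNF304 was −0.87 under JQ1-FCPF and 0.21 under JQ1, where the libraries with sgRNA had 6.34, 5.70 and 4.96 CPM and those without it 5.47, 4.47 and 4.70 CPM. The interaction was −1.08 ± 0.24, with a 95% interval of −1.57 to −0.59 (adjusted p = 0.0289). For ZNF584 the values were −0.71 under JQ1-FCPF and 0.17 under JQ1, where the libraries with sgRNA had 16.2, 22.1 and 23.4 CPM and those without it 20.4, 18.6 and 15.8 CPM. Its interaction was −0.88 ± 0.19, with a 95% interval of −1.28 to −0.47 (adjusted p = 0.0322).

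ZNF543 at −1.25 (adjusted p = 0.0814) and ZNF17 at −1.16 (adjusted p = 0.0762) had the lowest interaction values and did not pass, nor did ZNF837 with the highest, 0.74 (adjusted p = 0.326). ZNF304 was called under 14 of 23 alternatives and ZNF584 under 12. Over all members the count of 2 was 0 without any 1 of JQ1-FCPF with sgRNA replicate 1, JQ1-FCPF without sgRNA replicates 2 and 3, JQ1 with sgRNA replicate 2 and JQ1 without sgRNA replicates 2 and 3. It was 1 without JQ1-FCPF with sgRNA replicate 3, JQ1-FCPF without sgRNA replicate 1, JQ1 with sgRNA replicate 3 or control replicate 3, 7 without JQ1-FCPF with sgRNA replicate 2 and 10 without both libraries that stand apart.

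Across the 8 pairwise comparisons 33 of the 148 members were called at least once, 22.3%, where the background was 25.1% of all tested genes, and 115 were called in none. The members' share was near the background. The comparisons share libraries, so these calls are not independent of each other.

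Most members with a known role did not pass the test in the first comparison, which does not show that they were unchanged. ZNF91, which represses SVA retrotransposons, had 7.46 ± 0.582, 6.85 ± 1.12, 7.86 ± 0.956, 7.18 ± 0.489 and 6.77 ± 0.811 CPM (SD, n = 3 each) in the JQ1-FCPF group with sgRNA, that without it, the JQ1 group with sgRNA, that without it and the control. ZNF93, which represses LINE-1 elements, lay between 6.08 ± 0.588 and 6.94 ± 0.522 CPM over the same groups. Their log2 fold changes with against without the sgRNA under JQ1-FCPF were 0.12, with a 95% interval of −0.21 to 0.45, and 0.11, with an interval of −0.23 to 0.45.

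ZNF274, which brings TRIM28 and SETDB1 to the 3′ ends of ZNF genes, had 36.9 ± 5.29 CPM with JQ1-FCPF and sgRNA, against 38.4 ± 2.02 CPM without the sgRNA (SD, n = 3 each). Its log2 fold change was −0.06, with an interval of −0.33 to 0.20. ZNF146 had 115 ± 13.2 against 119 ± 15.3 CPM, a log2 fold change of −0.05. ZNF224, a repressor of the aldolase A gene, had 4.29, 4.80 and 3.62 CPM with the sgRNA, against 5.05, 6.92 and 6.08 CPM without it. The groups did not overlap, and the log2 fold change was −0.51 (adjusted p = 0.229).

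ZNF180 and ZNF653 had log2 fold changes of −0.43 and −0.40 (adjusted p = 0.149 and 0.152). ZNF558, a repressor of SPATA18, had 20.6 ± 5.02 against 23.1 ± 2.03 CPM. ZNF587, which represses HERV-K long terminal repeats, had 27.6 ± 1.68 against 30.4 ± 2.52 CPM. ZNF675, which inhibits TRAF6 signalling, had 10.3 ± 1.68 against 10.2 ± 2.0 CPM. ZNF808, needed for pancreas development, had 8.06 ± 1.00 against 8.90 ± 0.586 CPM, and ZNF432 had 5.22 ± 0.837 against 6.09 ± 0.242 CPM (SD, n = 3 each). The adjusted p of these last 5 ranged from 0.499 to 0.983 in the same test. ZNF331, ZNF350, ZNF382, ZNF417 and ZNF568 did not pass the level rule.

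The mRNAs of the proteins through which KRAB domains act were measured in the same libraries. Of 18 genes for KRAB partners, 1 was called in the first comparison, CBX1, which encodes an HP1 protein and rose by 0.36 on the log2 scale (adjusted p = 0.0461), and their median was 0.026. That is 5.56% of the list, near the background of 6.25% called either way, and nothing is read from it. Against the control, 1 of the 18 was called under JQ1-FCPF with sgRNA (background 7.21%), 1 under JQ1 with sgRNA (background 14.2%) and 2 under JQ1 without sgRNA (background 12.3%). CBX5, another HP1 gene, rose relative to the control by 0.35 under JQ1-FCPF with sgRNA and by 0.30 under JQ1 without sgRNA (adjusted p = 0.021 and 0.0354). MPHOSPH8 of the HUSH complex rose by 0.31 under JQ1 with sgRNA (adjusted p = 0.0349), and the deacetylase gene HDAC1 fell by 0.30 under JQ1 without sgRNA (adjusted p = 0.028). The other 4 pairwise comparisons and the interaction had 0 calls among them. TRIM28 itself had 1010 ± 173 CPM in the JQ1-FCPF group with sgRNA, 985 ± 43.0 in that without it, 829 ± 129 in the JQ1 group with sgRNA, 820 ± 8.71 in that without it and 1050 ± 71.9 in the control (SD, n = 3 each).

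A list of 29 genes outside the family whose mRNAs are known to be short-lived, among them FOS, JUN, MYC, IER2 and MCL1, had calls in both directions in the first comparison. There 5 of the 29 rose (background 2.06%) and 8 fell (background 4.2%), 44.8% called either way against a background of 6.25%, and the median log2 fold change was −0.002. Under JQ1-FCPF with sgRNA against the control 4 rose (background 2.42%) and 8 fell (background 4.79%), with a median of −0.158. JQ1-FCPF with sgRNA against JQ1 with sgRNA gave 10 that rose (background 1.18%) and 4 that fell (background 1.77%), with a median of 0.291. JQ1 with sgRNA against the control gave 1 higher (background 7.21%) and 15 lower (background 7.04%), with a median of −0.59. JQ1 without sgRNA against the control gave 2 higher (background 6.07%) and 7 lower (background 6.23%), with a median of −0.324. JQ1-FCPF without sgRNA against the control, and JQ1 with against without the sgRNA, each gave 0 calls. Some of these mRNAs varied widely within the JQ1-FCPF group with sgRNA, such as PIM1 at 314 ± 293 and FOS at 63.4 ± 27.7 CPM. Others did not, such as MYC at 59.5 ± 1.95 CPM (SD, n = 3 each). How far the calls of this list depend on single libraries is not given here.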

How the data were processed

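RNA-seq libraries of K562 cells were analysed from the whole-number counts per gene that the authors deposited, one table per library, with gene identifiers, positions and exon lengths per the file headers. Extraction was with Trizol, per the labels' protocols; the sources used here give no aligner, counting tool, strand setting or genome build. Gene spans were compared with GENCODE 29 on GRCh38, where 141 of 148 members had the same start and end. Gene types were taken from that annotation, and symbols from a separate list of gene names.

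CPM were computed with TMM-scaled library sizes, while the level rule used column totals; log2 CPM used a prior count of 2. Genes kept by filterByExpr (minimum count 10), 15517 in all, were tested in 9 comparisons with edgeR 4.0.16 (limma 3.58.1, R 4.3.3): quasi-likelihood test, 1 mean per group over the 15 libraries, Benjamini-Hochberg adjustment, threshold 0.05. All 148 members passed the filter. The biological coefficient of variation was 11.1%. With 3 libraries a group and low counts, small changes of members with few counts may go undetected. The range of total counts per library is given in the report. The test of the first comparison was also run on simulated counts in which no library stood apart. That check does not cover libraries that stand apart.

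The members and gene lists were chosen with earlier results of these data known. Named genes were up to 8 called members per direction and comparison by fold, the 5 highest by CPM and by CPM per kb, the members nearest the level threshold, a list with known roles, the 5 largest and smallest SDs, and the extreme folds. Lists of KRAB partners (18 genes), short-lived mRNAs (29 genes) and cell type markers are given whole as counts. KRAB and finger patterns were read from translated GENCODE 29 coding transcripts, in place of the RefSeq proteins that had been planned. Promoters are from RefSeq.

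Title letters may number the replicates. Same-letter correlations of deviations from group means ran from −0.238 to 0.311, and other-letter ones from −0.339 to 0.237. These values showed no pairing but, with 3 libraries a group, cannot exclude it. The main fit did not pair the libraries. Alternatives were DESeq2 1.42.0, other scalings, no filter, other level rules, fewer groups in the fit, the letter as a block, each library left out, and, chosen after seeing the data, a correction for GC content and length and leaving out the libraries that stand apart.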

Additional observations from a re-analysis of the deposited data

Results flagged for a closer look

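For 2 members the sgRNA's effect differed between the compounds by a test of the difference itself, edgeR's quasi-likelihood test of the interaction with Benjamini-Hochberg adjustment. These are 1.35% of the 148 members, where the background was 0.786% of tested genes. The share rests on 2 genes and is near the background, so nothing about the family is read from this count. The interaction was −1.08 on the log2 scale for ZNF304 and −0.88 for ZNF584. The KRAB gene ZNF304 was lower with the sgRNA under JQ1-FCPF in 3 of 3 libraries, with a log2 fold change of −0.87, while under JQ1 it had a log2 fold change of 0.21 with overlapping groups. ZNF584 had a log2 fold change of −0.71 under JQ1-FCPF, with no overlap, and of 0.17 under JQ1, with overlap. The adjusted p ran from 0.0135 to 0.0964 for ZNF304 and from 0.000514 to 0.105 for ZNF584 over the 23 alternatives. ZNF304 was called under 14 of them and ZNF584 under 12, so neither call held under every alternative. The groups of 3 are too small for a test of single outlying libraries.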

How the results depend on the processing

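Of the members called, 0 changed direction under the 23 alternatives, while many calls were lost. With the groups compared alone in the fit, the members called were 5 (JQ1-FCPF with against without sgRNA), 7 (JQ1-FCPF with sgRNA against control), 24 (JQ1 without sgRNA against control), 0 (JQ1-FCPF against JQ1, with sgRNA) and 18 (the same without sgRNA), and 0 for the interaction. Without both libraries that stand apart they were, against the control, 32 for JQ1-FCPF with sgRNA, 11 for JQ1 with sgRNA and 21 for JQ1 without it, then 29 and 22 for JQ1-FCPF against JQ1 with and without sgRNA, and 10 for the interaction. With a level rule of mean CPM 5, 2 were called for JQ1-FCPF against JQ1 with sgRNA and 1 for the interaction, for which DESeq2 called 4. The replicate block gave 19, 0, 17, 0, 5, 7, 7 and 8 calls in the 8 pairwise comparisons and 1 in the interaction. Leaving out each library gave 9 to 23 calls for JQ1-FCPF with against without sgRNA and 0 to 0 for JQ1 likewise. Against the control it gave 10 to 23 for JQ1-FCPF with sgRNA, 0 to 0 for JQ1-FCPF without it, 3 to 9 for JQ1 with sgRNA and 0 to 13 without it. For JQ1-FCPF against JQ1 it gave 0 to 32 with sgRNA and 0 to 14 without it, and 0 to 7 for the interaction. Fits with fewer samples have fewer degrees of freedom; the cause of the other shifts was not tested. Depth limits the detection of small changes in genes with few counts.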
